A study of Rattus norvegicus with 12 samples.

Results

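Expression of 41 interferon-stimulated and antigen presentation genes was followed in 2 rat tissues, colon and hippocampus, after hypoxic-ischemic brain damage (HI) or a sham procedure. The genes were chosen by symbol as an interferon and antigen presentation module, and where a symbol had several rows the row with the highest mean expression was taken. All 41 were among the 14803 genes listed for the colon and 30 among the 14266 listed for the hippocampus, out of 15939 genes in all. The 4 groups were colon HI, colon sham, hippocampus HI and hippocampus sham, with 3 libraries each and 12 in all. The labels used here give no strain, age, time after injury or number of animals per library. The series title speaks of neonatal rats and of gut lipopolysaccharide acting through TLR4, MyD88 and NF-κB. Beside MyD88, TLR4 is known to use the adaptor TRIF, through which it induces type I interferon.

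Interferons are secreted alarm proteins. Type I interferon binds its receptor, and the kinases attached to it activate STAT2, which works with IRF9 to turn on genes that carry an interferon-stimulated response element (ISRE). Interferon gamma acts at another promoter element, the gamma-activated site (GAS). Among the targets are antiviral effectors such as the Mx, Oas and Ifit families, and the machinery that shows peptides to T cells. Class I molecules, made of an RT1-A or RT1-C/E heavy chain and B2m, present peptides cut by the immunoproteasome and moved by the Tap transporter. Class II molecules, RT1-B and RT1-D in the rat, are chaperoned by Cd74 and loaded with the help of RT1-DM, and their genes are switched on by Ciita through promoter motifs called the X box and the Y box. In a healthy gut class II is carried by dendritic cells, macrophages, B cells and some epithelium, whereas healthy brain tissue holds little of it.

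The promoters of the class II chain genes are shown because these genes share a switch and yet the chains of RT1-B varied between colon libraries apart from those of RT1-D. The lines hold 63 bases each, 5′ to 3′ on the coding strand, cut so that the Y boxes stand in one column. They come from RefSeq for the assembly GRCr8, and capitals mark the Y box (CTGATTGG) and, upstream of it, the X box core (AG, any 2 bases, AC, any 1 base, GATG).
RT1-Bb: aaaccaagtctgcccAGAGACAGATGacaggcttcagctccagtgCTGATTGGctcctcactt
RT1-Ba: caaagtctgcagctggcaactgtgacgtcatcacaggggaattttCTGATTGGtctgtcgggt
RT1-Da: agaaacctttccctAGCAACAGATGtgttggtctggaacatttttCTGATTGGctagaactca
RT1-Db1: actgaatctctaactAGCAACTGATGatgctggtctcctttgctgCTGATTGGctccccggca
On GRCr8 these stretches are chr20:4604165-4604227 on the minus strand for RT1-Bb, chr20:4576966-4577028 on the plus strand for RT1-Ba, chr20:4515318-4515380 on the plus strand for RT1-Da and chr20:4560228-4560290 on the minus strand for RT1-Db1. RT1-Bb, RT1-Da and RT1-Db1 held both motifs in these letters. RT1-Ba held the Y box, and the letters of the X box core were not found in its window. The search took only these letters, so a variant form of the X box would be missed. The letters are those of the reference assembly. The promoters of the animals studied, whose strain is not given, were not read and may differ.

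The promoters of 2 interferon effectors follow. Ifitm3 is shown because it had the smallest p of the members in the hippocampus, and Oas1a because every HI library of the colon lay above sham for it. Each line gives the 250 bases before the start, 5′ to 3′, with the ISRE (GAAA, any 2 bases, GAAA) and the GAS (TTCNNNGAA) in capitals.
Ifitm3: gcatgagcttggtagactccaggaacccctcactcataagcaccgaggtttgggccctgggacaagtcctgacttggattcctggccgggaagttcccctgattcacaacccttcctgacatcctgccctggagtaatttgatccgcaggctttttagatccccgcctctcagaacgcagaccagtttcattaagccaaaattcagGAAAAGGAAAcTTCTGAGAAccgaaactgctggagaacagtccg
Oas1a: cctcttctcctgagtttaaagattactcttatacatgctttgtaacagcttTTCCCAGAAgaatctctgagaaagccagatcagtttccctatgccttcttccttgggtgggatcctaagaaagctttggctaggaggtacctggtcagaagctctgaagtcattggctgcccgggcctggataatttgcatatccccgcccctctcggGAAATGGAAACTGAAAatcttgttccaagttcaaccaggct
The Ifitm3 stretch is chr1:205541759-205542008 on the minus strand and that of Oas1a chr12:41330216-41330465 on the plus strand of GRCr8. In Oas1a a pair of ISRE matches share bases.

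Of the 41 members 31 had a RefSeq window, which runs from 250 bases before to 50 after the start. Both strands were searched. The ISRE letters stood in 16 of the 31 windows, against 3.92% of all 33469 windows of that length. By role they were in 9 of 11 effectors, 1 of 4 regulators, 1 of 1 RNA sensors, 5 of 9 class I genes and 0 of 6 class II genes. The Y box was found in 8 windows, 4 of 6 in class II and 4 of 9 in class I, against 3.5% of all. The X box core was found in 4, against 0.95% of all, namely RT1-Bb, RT1-Da, RT1-Db1 and the RNA sensor Ifih1, where it overlapped an ISRE. The GAS letters were found in 6 (Oas1a, Irf1, Irf9, Bst2, Psmb8 and Ifitm3), against 8.87% of all, and in Bst2 they overlapped an ISRE. Such matches are matches of letters, and binding was not measured. Isg15, Ifit1, Ifit2, Mx2, Oas2, Usp18, Ddx58, RT1-DMb, Ciita and Nlrc5 had no window in the table.

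Expression was deposited in FPKM (fragments per kilobase, scaled for library size), which does not show the sequencing depth. Summed over the listed genes, a library held 495505 to 509775 FPKM in the colon and 452291 to 466432 FPKM in the hippocampus. All 11 colon epithelial markers were listed in the colon, with sums of 6529 to 7891 FPKM in HI and 6320 to 6778 FPKM in sham, and all 10 neuron markers in the hippocampus, with sums of 2293 to 2591 FPKM in HI and 2642 to 2707 FPKM in sham. Some libraries stood apart from others of their group. Colon HI 2 and HI 3 expressed class I genes that the other colon libraries hardly expressed, as described with the RT1 genes. Hippocampus HI 1 held 4177 FPKM of Ttr, which marks choroid plexus, against 12.9 and 18.2 FPKM in the other HI libraries and 0.391 to 6.76 FPKM in sham. The 3 listed genes of the Y chromosome summed to 0.267 FPKM in colon sham 1 and 59.6 to 77.0 FPKM in the other colon libraries, and to 53.9 FPKM in hippocampus HI 1, with no other hippocampus library above 0.133 FPKM. Among the colon columns, 2 sham ones share a name, and they appear here as sham 3a and sham 3b. Whether each library came from an animal of its own is not stated, so p-values rest on differences between libraries that may be technical. In bulk tissue fewer cells of a type and less RNA per cell cannot be told apart.

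In the colon, HI and sham libraries expressed the module at about the same level, and no member passed the test. With limma on log2(FPKM + 1), 38 of the 41 members passed the filter on low values (at least 1 FPKM in at least 3 libraries). Of these, 0 had an adjusted p under 0.05 (smallest 0.402), against 6 of all 13753 genes tested (0.0436%). At an unadjusted p under 0.05 there were 4 members, 10.5% of those tested, against 11.1% of all genes. Of the 4, Mx1, RT1-A1 and Oas1a were higher in HI (4.6% of all genes) and RT1-CE5 was lower (6.55%). Mx1, RT1-A1 and Oas1a were also the 3 members with every HI library above every sham library (5.63% of all genes), and for 0 tested members every HI library lay below (10.3%). The median log2 change of the members was -0.04 (18 higher, 20 lower), against -0.04 for all genes tested.

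By role, the medians in the colon were -0.07 for the 5 interferon regulators (0 higher), 0.13 for the 2 RNA sensors (2 higher), 0.04 for the 14 effectors tested (8 higher), -0.09 for the 9 class I genes (1 higher) and 0.12 for the 8 class II genes (7 higher). Ifit3, Oas2 and Nlrc5 did not pass the filter. Ifit3, a partner of other Ifit proteins on viral RNA, was at 0.187 to 0.363 FPKM in HI and 0.437 to 0.590 FPKM in sham, so its groups did not overlap at this low level. The map of the members by library shows that libraries of one group differed from each other as much as the groups did.

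**Figure D1:**
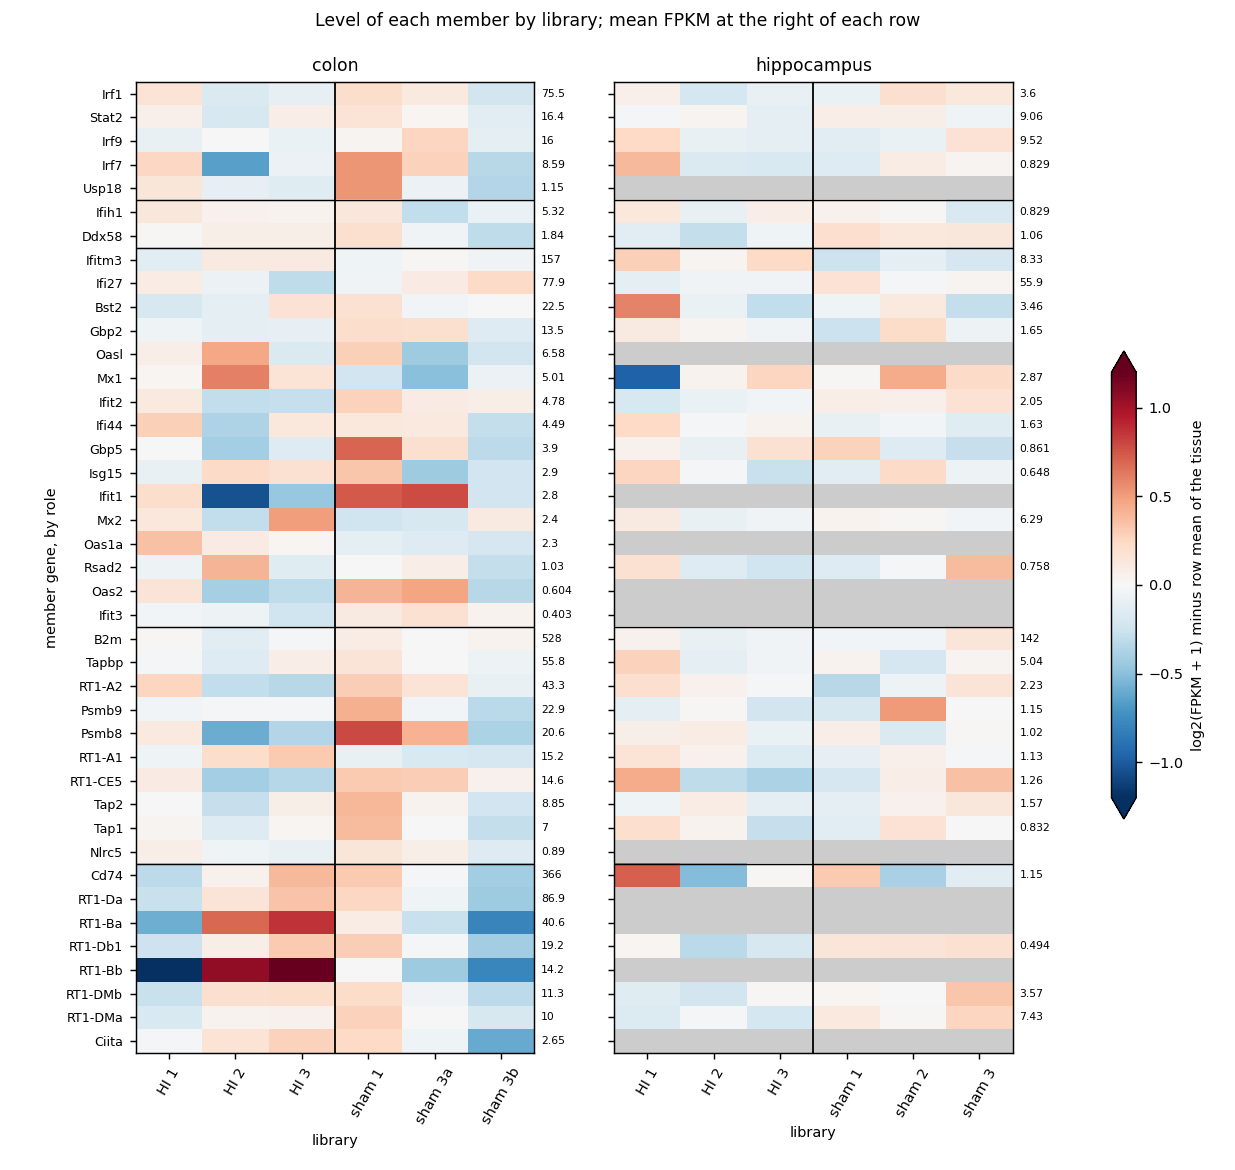
Each row is 1 of the 41 genes, grouped by role (regulators, RNA sensors, effectors, class I, class II), and each column 1 library, with 3 HI libraries left of 3 sham libraries in each tissue. Colour gives log2(FPKM + 1) minus the mean of the row in that tissue, the number at the right is the mean FPKM, and grey marks the 11 genes analysed in the colon only. RT1-Bb and RT1-Ba are high in colon HI 2 and HI 3 and low in HI 1.

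The antiviral effectors of the colon lay on both sides of sham. Mx1 (chr11:37891156-37914983, minus strand, in the coordinates of the deposited tables, whose build was not given in the sources used here), a GTPase that blocks viruses, had 4.94, 7.90 and 5.56 FPKM in HI libraries and 3.98, 3.12 and 4.57 FPKM in sham libraries. All 3 HI libraries lay above sham, with HI 1 the nearest to it. The log2 change was 0.53 ± 0.18 (SE; adjusted p = 0.402, limma). Oas1a (chr12:41200718-41211909, plus strand), which makes the second messenger that switches on RNase L, had 3.17, 2.51 and 2.33 FPKM in HI and 2.02, 1.95 and 1.84 FPKM in sham. Its groups did not overlap and HI 1 was the highest library, with a log2 change of 0.32 ± 0.13 (SE; adjusted p = 0.442, limma). Without HI 2 and HI 3 it was 0.51 ± 0.15 (adjusted p = 0.868, limma), with HI 1 alone standing for HI and assumed to vary like sham.

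The Ifit genes, which bind foreign RNA, were lower in most HI libraries of the colon without passing the test. Ifit1 had 3.01, 0.673 and 1.52 FPKM in HI and 4.74, 4.94 and 1.94 FPKM in sham. HI 1 lay above sham 3b, so the groups overlapped, and the log2 change was -0.86 ± 0.38 (SE; adjusted p = 0.455, limma). Ifit2 had 5.21, 3.65 and 3.73 FPKM in HI and 5.93, 5.11 and 5.02 FPKM in sham, with HI 1 inside the range of sham. Gbp5, a guanylate-binding protein that interferon gamma induces strongly, had 3.72, 2.56 and 3.24 FPKM in HI and 6.67, 4.40 and 2.80 FPKM in sham. Sham 1 and sham 3a were the highest libraries for Gbp5 and sham 3b lay among HI. Ifi27, a small protein of mitochondria and the nuclear envelope, was far more abundant, at 82.1, 73.7 and 62.5 FPKM in HI and 75.1, 83.0 and 91.1 FPKM in sham, with groups that overlapped. Ifitm3, which stops viruses from fusing in endosomes, was the most abundant effector, with 142, 169 and 169 FPKM in HI and 151, 158 and 152 FPKM in sham. Its log2 change was 0.05 ± 0.08 (SE), the smallest but one among the 14 effectors tested. The other effectors tested had log2 changes between -0.17 (Gbp2) and 0.24 (Oasl), and all their groups overlapped.

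No interferon regulator or RNA sensor of the colon passed the test. Irf1, a transcription factor shared by interferon gamma and inflammatory signals, was the most abundant regulator, with a mean of 73.5 ± 9.42 FPKM in HI and 77.5 ± 11.7 FPKM in sham (SD, n = 3 each). Stat2 averaged 16.2 ± 1.76 FPKM in HI and 16.6 ± 1.78 FPKM in sham, and Irf9, its partner, 15.3 ± 0.557 FPKM in HI and 16.7 ± 2.30 FPKM in sham (SD, n = 3 each). Irf7, which amplifies type I interferon, ranged from 4.89 to 9.95 FPKM in HI and from 6.31 to 12.4 FPKM in sham. Its log2 change was -0.32 ± 0.28 (SE), and its locus overlaps that of Phrf1. The sensors of viral RNA, Ifih1 (MDA5) and Ddx58 (RIG-I), had log2 changes of 0.15 ± 0.13 and 0.10 ± 0.15 (SE). Usp18, which strips Isg15 from proteins and damps interferon signalling, was at 0.908 to 1.33 FPKM in HI and 0.651 to 2.04 FPKM in sham. All 7 genes had groups that overlapped.

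**Figure D2:**
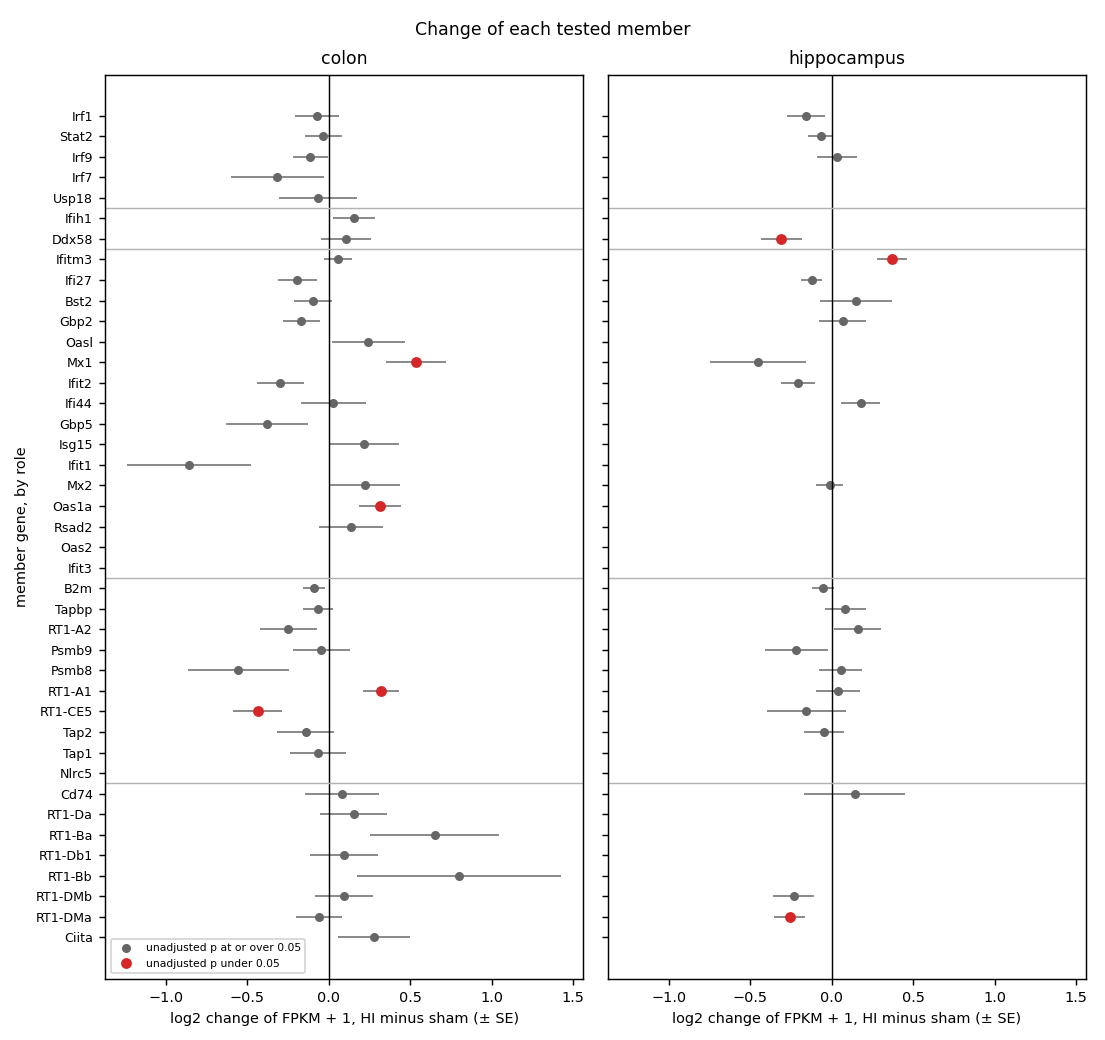
Points give the log2 change of FPKM + 1, HI minus sham, of every tested member in the colon (left) and the hippocampus (right), with bars of 1 SE, and red points have an unadjusted p under 0.05. Rows without a point were not tested. Members scatter to both sides of 0 in either tissue, and RT1-Bb has the widest bar.

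Class I presentation in the colon was dominated by B2m, the invariant light chain, with 532, 484 and 518 FPKM in HI and 562, 526 and 543 FPKM in sham. The groups overlapped, and the log2 change was -0.09 ± 0.07 (SE). Its heavy chain partners did not vary together. RT1-A1 (chr20:5351605-5421098, plus strand) had 14.5, 17.6 and 19.0 FPKM in HI and 14.1, 13.1 and 12.96 FPKM in sham, a log2 change of 0.32 ± 0.11 (SE; adjusted p = 0.407, limma). HI 1 lay just above sham. RT1-CE5 (chr20:4892702-4896991, minus strand) had 15.4, 10.6 and 11.1 FPKM in HI and 18.0, 17.8 and 14.9 FPKM in sham, a log2 change of -0.44 ± 0.15 (SE; adjusted p = 0.402, limma). Here HI 1 lay above sham 3b, and HI 2 and HI 3 below all sham libraries. RT1-A2, the heavy chain of the module with the highest mean, had 51.0, 34.4 and 33.7 FPKM in HI and 52.6, 47.8 and 40.1 FPKM in sham. RT1-A1 over RT1-A2 was accordingly 0.284, 0.512 and 0.565 in HI 1 to HI 3, against 0.268 to 0.323 in sham. Values of these heavy chains are uncertain, since they are near-identical copies between which reads can be split, and the use of strand is not stated. The RT1-A1 locus holds RT1-A2, and that of RT1-CE5 overlaps RT1-CE1, RT1-CE4 and RT1-CE7.

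The genes of the peptide supply for class I did not pass the test. Psmb8, a catalytic immunoproteasome subunit, had 21.1, 12.4 and 14.9 FPKM in HI and 34.3, 26.1 and 14.6 FPKM in sham, a log2 change of -0.56 ± 0.31 (SE; adjusted p = 0.524, limma). Sham 3b lay among HI, and without it the log2 change was -0.88 ± 0.22 (SE; adjusted p = 0.167, limma). It was -0.30 ± 0.29 without sham 1, -0.16 ± 0.46 without HI 2 and HI 3, and 0.14 ± 0.23 with the Hox axis score (a contrast of posterior and anterior Hox genes, given with the other RT1 genes). Psmb9, another catalytic subunit, stayed at 22.0 to 22.4 FPKM in HI and spread from 17.9 to 30.7 FPKM in sham. Psmb8 over Psmb9 was 0.958, 0.554 and 0.670 in HI 1 to HI 3 and 0.817 to 1.18 in sham. The chains of the transporter, Tap1 and Tap2, kept a ratio of 1.15 to 1.33 (Tap2 over Tap1) in all 6 libraries. Tapbp (tapasin), which holds class I at the transporter, averaged 54.5 ± 4.44 FPKM in HI and 57.2 ± 4.61 FPKM in sham (SD, n = 3 each). Nlrc5, the activator of class I genes, did not pass the filter, at 0.773 to 0.986 FPKM in HI and 0.693 to 1.08 FPKM in sham.

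Among the class II genes of the colon, Cd74, RT1-Da and RT1-Db1 kept step with each other, and the pair RT1-Ba and RT1-Bb did not keep step with RT1-Da. The other class II genes were not compared in this way. Cd74, the chaperone of class II, had 287, 370 and 470 FPKM in HI and 447, 354 and 267 FPKM in sham. RT1-Da, the alpha chain of RT1-D, had 70.6, 95.2 and 109 FPKM in HI and 101, 82.5 and 63.2 FPKM in sham. For both genes HI 1 and sham 3b were low and HI 3 and sham 1 high, so the spread lay within the groups. Across the 6 libraries Cd74 over RT1-Da stayed between 3.89 and 4.41, and RT1-Db1, the beta chain, over RT1-Da between 0.209 and 0.230. RT1-DMa and RT1-DMb, which exchange peptides on class II, had log2 changes of -0.06 ± 0.14 and 0.09 ± 0.18 (SE). Ciita, the master regulator, was at 2.52 to 3.34 FPKM in HI and 1.36 to 3.23 FPKM in sham. RT1-DMb had another row of its own symbol and length, which was not counted among the members. That row had a log2 change of 0.09 ± 0.14 (SE).

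The chains of RT1-B left this pattern in HI 2 and HI 3. RT1-Ba (chr20:4066132-4070721, minus strand), the alpha chain, had 24.3, 60.4 and 68.1 FPKM in HI and 39.3, 30.6 and 20.9 FPKM in sham. RT1-Bb (chr20:4039413-4049711, plus strand), the beta chain, is named here after its values were seen and had 4.36, 24.7 and 30.1 FPKM in HI and 11.4, 8.18 and 6.17 FPKM in sham. For both genes HI 2 and HI 3 were the highest of the 6 libraries, while HI 1 was the lowest for RT1-Bb and next to the lowest for RT1-Ba. RT1-Bb over RT1-Da was 0.0617, 0.260 and 0.278 in HI 1 to HI 3 and 0.0976 to 0.112 in sham. RT1-Ba over RT1-Da was 0.344, 0.635 and 0.628 in HI 1 to HI 3 and 0.330 to 0.388 in sham. The log2 changes were 0.65 ± 0.40 for RT1-Ba (SE; adjusted p = 0.556, limma) and 0.80 ± 0.63 for RT1-Bb (adjusted p = 0.640, limma). Without HI 1 they were 1.10 ± 0.24 (adjusted p = 0.158, limma) and 1.60 ± 0.23 (adjusted p = 0.102, limma), and without HI 2 and HI 3 they were -0.26 ± 0.34 and -0.80 ± 0.32.

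**Figure D3:**
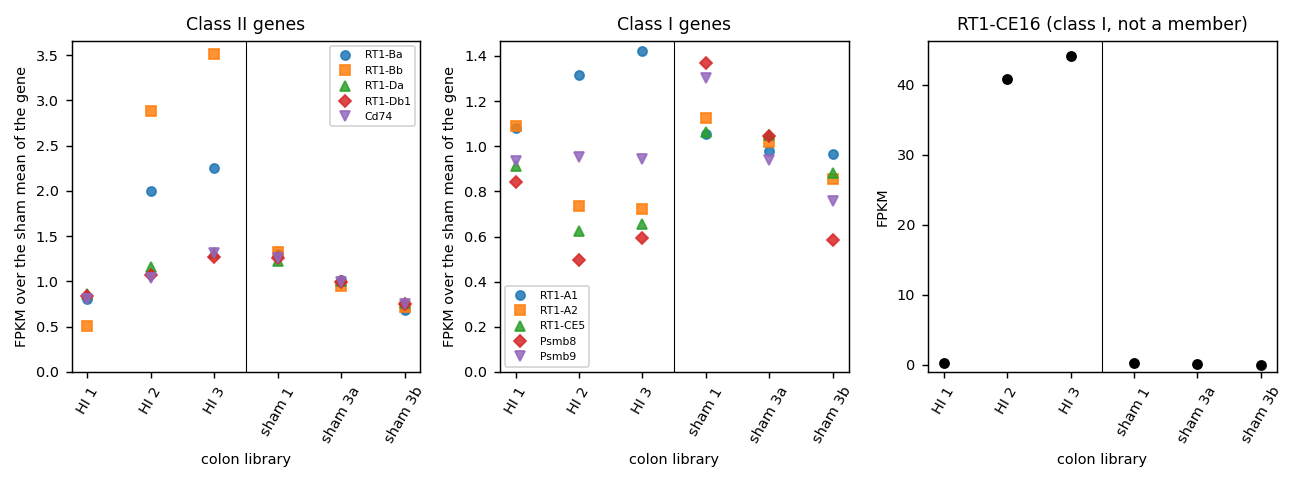
The left and middle panels give FPKM over the sham mean of the gene (no unit) in each colon library, HI libraries left of the line and sham libraries right of it, and the right panel gives FPKM of RT1-CE16. RT1-Ba, RT1-Bb and RT1-A1 are high and RT1-A2, RT1-CE5 and Psmb8 low in HI 2 and HI 3, where RT1-CE16 reaches 40.9 and 44.1 FPKM.

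The same pair of libraries differed in class I genes outside the module, which were looked at after their values were seen. RT1-CE16 (chr20:3791407-3794027) had 0.349, 40.9 and 44.1 FPKM in HI 1 to HI 3 and 0.284, 0.137 and 0 FPKM in sham. RT1-S2 had 0.0627, 1.46 and 1.497 FPKM in HI 1 to HI 3 and at most 0.151 FPKM in sham. HI 2 and HI 3 thus expressed heavy chain genes that HI 1 and the sham libraries hardly expressed. The RT1 complex is known to be highly polymorphic, with gene content that differs between rat haplotypes, and no label gives the strain of a library. HI 2 and HI 3 also had the highest Hox axis score (the mean log2 level of 3 posterior Hox genes minus that of 21 anterior ones), at 1.58 and 2.03, against -0.75 in HI 1 and -2.21, -2.71 and 0.30 in sham. Apart from fits with this score or without these libraries, their part in the members' changes was not tested. With the score as a covariate the log2 changes of RT1-Bb and RT1-Ba were -0.03 ± 0.77 and 0.35 ± 0.53 (SE). Those of RT1-CE5, RT1-A1 and Mx1 were -0.12 ± 0.13, 0.20 ± 0.15 and 0.24 ± 0.21 (SE), and that of Oas1a was 0.48 ± 0.17.

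Counts of members in the colon depended on these libraries. The counts over all genes moved with them. Without HI 1, 9 members had an unadjusted p under 0.05, 24.3% of those tested, against 16.3% of all genes in that fit (RT1-Bb, RT1-CE5, RT1-A1, RT1-Ba, RT1-A2, Ifit2, Mx1, Ifit1 and Ifi27). Without HI 2 there were 0 (7.46% of all genes) and without HI 3 there were 2 (9.49% of all genes), and leaving out HI 2 and HI 3 together left Oas1a alone (5.71% of all genes). Without sham 3a there were 0 (4.99% of all genes). Without sham 3b there were 6 (Psmb8, Ifit1, Gbp5, RT1-CE5, Gbp2 and Mx1), 15.8% of those tested, against 15.7% of all genes. No member passed an adjusted p of 0.05 in limma under any of these settings. Markers of immune cells also varied within the groups. The 12 listed of 13 B and plasma cell markers summed to 24.7 to 49.2 FPKM in HI and 10.2 to 54.1 FPKM in sham. The 14 listed of 15 T and NK cell markers summed to 47.4 to 95.2 FPKM in HI and 54.0 to 98.0 FPKM in sham. The 17 listed of 18 macrophage markers summed to 389 to 545 FPKM in HI and 406 to 470 FPKM in sham, and the 11 listed of 13 dendritic cell and costimulation markers to 37.6 to 52.4 FPKM in HI and 41.7 to 54.3 FPKM in sham. No listed marker of these lists was at 0 in all libraries, and their part in the members' levels was not tested.

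In the hippocampus, the module was low in both groups, and again no member passed the test. Ifitm3 was higher in HI, and RT1-DMa and the RNA sensor Ddx58 were lower, each at an unadjusted p under 0.05 only. Of the 30 members listed, 23 passed the filter, and 0 of them had an adjusted p under 0.05 in limma (smallest 0.666), against 1 of all 13181 genes tested (0.00759%). At an unadjusted p under 0.05 there were 3, 13.04% of those tested, against 6.62% of all genes (3.45% higher, 3.16% lower). Ddx58 passed the filter only through the sham libraries, where it was high, and with it set aside there were 2 of 22 (9.09%). Every HI library lay above every sham library for 2 tested members, Ifitm3 and Ifi44 (6.4% of all genes), and below for 4, Ifit2, Ifi27, Ddx58 and RT1-DMa (6.81%), or 3 without Ddx58. The median log2 change of the tested members was -0.05 (10 higher, 13 lower), against -0.0015 for all genes. By role it was -0.07 for the 3 regulators tested, 0.03 for the 8 effectors, -0.0045 for the 8 class I genes and -0.23 for the 3 class II genes. The count of 3 members became 1, namely Ifitm3, without HI 1, without sham 1 or without sham 3. Leaving out any sham library took Ddx58 under the filter, so its loss from the count in those fits was fixed in advance. That was 4.76%, 4.76% and 5% of the members tested, against 5.21%, 4.44% and 6.74% of all genes in those fits.

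Among the effectors of the hippocampus, Ifitm3 (chr1:213810696-213811901, minus strand) stood first. It had 10.3, 8.42 and 9.87 FPKM in HI and 6.79, 7.59 and 7.03 FPKM in sham. All 3 HI libraries lay above sham, and the log2 change was 0.37 ± 0.09 (SE; adjusted p = 0.666, limma). It was 0.32 ± 0.10 without HI 1, the library with choroid plexus markers (adjusted p = 0.923, limma), and 0.30 ± 0.10 with the mean level of 10 myelin genes as a covariate. Ifi44, an interferon-induced protein that limits viral growth, had 2.10, 1.59 and 1.70 FPKM in HI and 1.46, 1.57 and 1.37 FPKM in sham, groups that nearly touched. Ifit2 had 1.66, 1.88 and 1.97 FPKM in HI and 2.22, 2.17 and 2.43 FPKM in sham, and Ifi27, the most abundant effector here, had 51.8, 54.3 and 54.3 FPKM in HI and 63.1, 55.0 and 57.0 FPKM in sham. In both the HI libraries were the lower ones. Mx1 had 0.887, 2.82 and 3.42 FPKM in HI and 2.74, 4.04 and 3.34 FPKM in sham, a log2 change of -0.45 ± 0.29 (SE; adjusted p = 0.777, limma). The low value was that of HI 1, and without that library the log2 change was -0.08 ± 0.15. Mx2, Bst2 (tetherin) and Gbp2 had log2 changes from -0.01 to 0.15 with groups that overlapped.

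**Figure D4:**
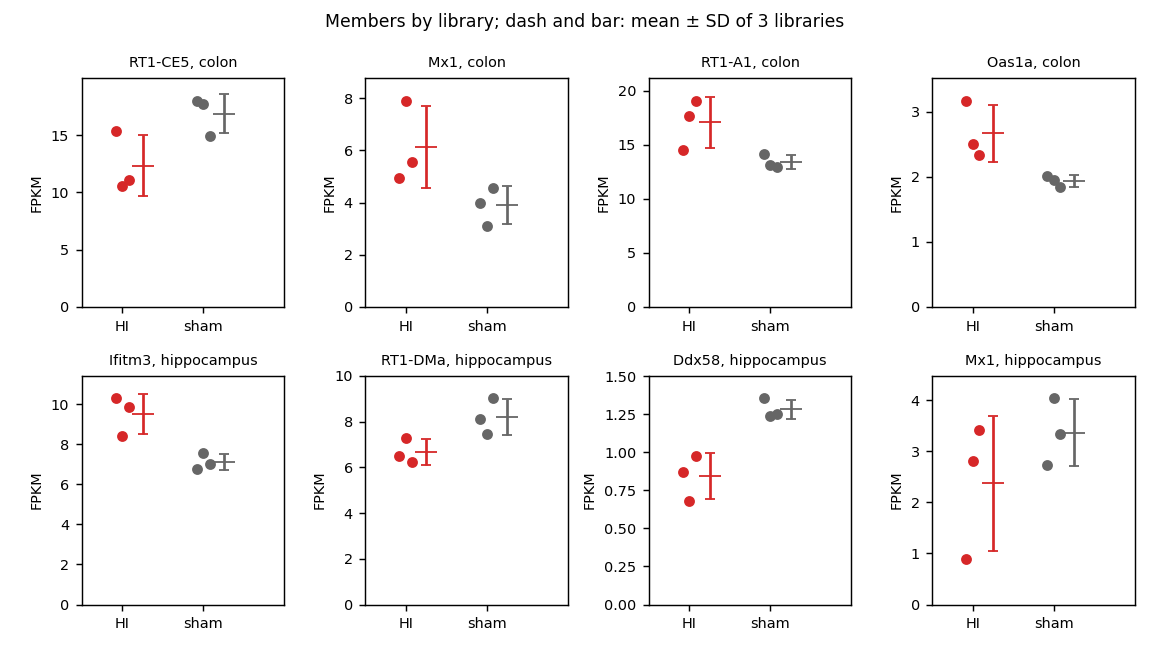
Points give the FPKM of each library, HI (red) left of sham (grey), with a dash and bar for the mean ± SD of 3 libraries, for 4 members of the colon (top) and 4 of the hippocampus (bottom). Groups do not overlap for Mx1, RT1-A1 and Oas1a in the colon or for Ifitm3, RT1-DMa and Ddx58 in the hippocampus, and the single low Mx1 point is hippocampus HI 1.

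Ddx58 (chr5:56500734-56536772, minus strand) had 0.872, 0.683 and 0.976 FPKM in HI hippocampus and 1.35, 1.24 and 1.25 FPKM in sham hippocampus. The log2 change was -0.31 ± 0.13 (SE; adjusted p = 0.734, limma). The gene passed the filter through the sham libraries alone, so its place among the lower members is no support for a difference. Ifih1, the other RNA sensor, stayed under the filter at 0.716 to 0.994 FPKM in HI and 0.612 to 0.892 FPKM in sham. Among the regulators, Irf9 had 11.4, 8.85 and 8.71 FPKM in HI and 8.53, 8.87 and 10.8 FPKM in sham, with HI 1 the highest library. Stat2 had 8.92, 9.26 and 8.28 FPKM in HI and 9.58, 9.58 and 8.72 FPKM in sham, and Irf1 had 3.77, 2.96 and 3.31 FPKM in HI and 3.32, 4.24 and 3.99 FPKM in sham. The groups overlapped for all 3 regulators. Irf7 was under the filter, and its highest value, 1.37 FPKM, was again in HI 1 (0.929 FPKM or less elsewhere).

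Class II genes of the hippocampus were at the edge of detection except for the DM chains. RT1-DMa (chr20:5240975-5244386, minus strand) had 6.49, 7.30 and 6.23 FPKM in HI and 8.10, 7.46 and 9.01 FPKM in sham. The groups did not overlap, though HI 2 came close to sham 2, and the log2 change was -0.26 ± 0.10 (SE; adjusted p = 0.729, limma). RT1-DMb, its partner chain, had 3.11, 2.89 and 3.57 FPKM in HI and 3.60, 3.53 and 4.72 FPKM in sham. Its log2 change was -0.23 ± 0.12 (SE), or -0.13 ± 0.12 without sham 3. The other RT1-DMb row had 1.897, 1.988 and 2.225 FPKM in HI and 2.231, 2.530 and 2.542 FPKM in sham. The log2 change of that row was -0.18 ± 0.11 (SE). Cd74 had 2.37, 0.431 and 1.08 FPKM in HI and 1.55, 0.565 and 0.880 FPKM in sham, so it differed more between HI libraries than between the groups. RT1-Db1, under the filter, had 0.510, 0.187 and 0.295 FPKM in HI and 0.640, 0.652 and 0.682 FPKM in sham. RT1-Ba, RT1-Bb, RT1-Da and Ciita were analysed in the colon only, as were Ifit1, Ifit3, Oas1a, Oas2, Oasl, Usp18 and Nlrc5.

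Class I genes of the hippocampus were led by B2m, with 147, 133 and 138 FPKM in HI and 139, 139 and 157 FPKM in sham, groups that overlapped. Psmb9 had 0.952, 1.13 and 0.813 FPKM in HI and 0.851, 2.01 and 1.12 FPKM in sham, with sham 2 high. The heavy chains RT1-A1, RT1-A2 and RT1-CE5 were at 0.697 to 2.69 FPKM in HI and 0.915 to 2.57 FPKM in sham. RT1-A1 over RT1-A2 was 0.415 to 0.514 in HI and 0.423 to 0.640 in sham. RT1-CE5 over RT1-A2 was 0.749, 0.336 and 0.323 in HI 1 to HI 3 and 0.595 to 0.709 in sham, so HI 2 and HI 3 were low in that ratio. RT1-CE5 itself was at only 0.782 and 0.697 FPKM in hippocampus HI 2 and HI 3, so these ratios rest on values near the floor. All 8 class I genes tested had groups that overlapped, with log2 changes from -0.22 to 0.16.

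Markers of the cells that could carry these transcripts were compared beside them. The 17 listed of 18 macrophage and microglia markers summed to 226 to 245 FPKM in HI hippocampus and 228 to 240 FPKM in sham hippocampus, and 9 of 15 tested were higher in HI (median log2 change 0.02). The 9 endothelial markers summed to 116 to 125 FPKM in HI and 121 to 135 FPKM in sham (median log2 change -0.09). The 8 smooth muscle markers summed to 42.3 to 54.5 FPKM in HI and 63.5 to 109 FPKM in sham, with 0 of 8 higher (median log2 change -0.54). The 10 myelin markers were all higher in HI (median log2 change 0.40), with sums of 1343 to 2642 FPKM in HI and 1209 to 2061 FPKM in sham. The 8 choroid plexus markers summed to 16.5 to 4357 FPKM in HI and 2.14 to 10.4 FPKM in sham. None of these listed markers was at 0 in all 6 libraries, and apart from the fits without HI 1 and with myelin genes their part in the members' values was not tested.

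The difference between the tissues was tested directly, as the colon change minus the hippocampus change, for 23 members. Transcripts of the Y chromosome, high in most colon libraries but only in HI 1 of the hippocampus, were not accounted for. Mx1 led, with a difference of 0.99 ± 0.38 on the log2 scale (SE; adjusted p = 0.496, limma), from 0.53 in the colon and -0.45 in the hippocampus. Ifitm3 followed with -0.31 ± 0.12 (adjusted p = 0.498, limma) and Ddx58 with 0.41 ± 0.19 (adjusted p = 0.544, limma), though Ddx58 passed the hippocampus filter through sham libraries alone. RT1-A2 and Psmb8 had differences of -0.41 ± 0.23 and -0.61 ± 0.35 (SE; adjusted p = 0.601 for each, limma). That of Psmb8 was -0.94 ± 0.25 without colon sham 3b and -0.35 ± 0.31 without colon sham 1. Thus 0 of 23 members had an adjusted p under 0.05, against 2 of 11861 genes (0.0169%), and 3 had an unadjusted p under 0.05 (13.04%, against 9.04% of all genes), or 2 of 22 (9.09%) with Ddx58 set aside. Of these, 2 were higher (3.38% of all genes) and 1 was lower (5.66%). That count was 5 without colon HI 1, 21.74% of the members tested, against 14.97% of all genes in that fit. It was 0 without colon sham 3a (5.69% of all genes). It was 1 without hippocampus HI 1, sham 1 or sham 2 (7.697%, 7.611% and 7.199% of all genes). In the fits without a hippocampus sham library Ddx58 fell under the filter, so its loss there was fixed in advance. The count stayed at 3 without colon sham 1 (13.04% of the members tested, against 6.53% of all genes). It also stayed at 3 without hippocampus sham 3 (15%, against 7.95% of all genes). The share of all genes thus moved with the count in some of these fits only. The median difference was -0.07 for the members and -0.04 for all genes. The Mx1 difference was 0.61 ± 0.26 without hippocampus HI 1.

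Levels in the 2 tissues are set side by side without a test, since the authors made the tables separately. The tissues also differed in which libraries held transcripts of the Y chromosome, and its part in the levels was not tested. Over all 6 libraries of a tissue, 24 of the 30 shared members had every colon library above every hippocampus library, against 42.8% of the 13130 genes in both tables. The median ratio of the mean FPKM, colon over hippocampus, was 6.03 for the members and 1.17 for all these genes. The widest gaps were in class II, where Cd74 averaged 366 FPKM in the colon and 1.15 FPKM in the hippocampus, a ratio of 319, and RT1-Db1 had a ratio of 38.8. Irf1 had a ratio of 21.0, Psmb8 of 20.3, Psmb9 of 20.0, RT1-A2 of 19.4 and Ifitm3 of 18.8. B2m had a ratio of 3.72. The ranges of RT1-DMa, Rsad2, Ifi27, Ddx58 and Mx1 overlapped between the tissues. Mx2 went the other way, at 1.71 to 3.72 FPKM in the colon and 5.85 to 6.85 FPKM in the hippocampus. RT1-DMa, at means of 10.0 FPKM in the colon and 7.43 FPKM in the hippocampus, thus stood nearly level while Cd74 did not.

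The genes up and down the pathway were read from 9 lists of 156 genes. In the colon 115 of them were tested, and 0 had an adjusted p under 0.05 in limma. At an unadjusted p under 0.05, 4 were higher and 3 lower, 6.09% of those tested, against 11.1% of all genes. In the hippocampus 86 were tested, with 0 past the adjusted threshold, and at an unadjusted p under 0.05, 5 were higher and 0 lower, 5.81% of those tested, against 6.62% of all genes (3.45% higher). Interferon ligands of type I and III were not analysed here (0 of 12 listed in either tissue), nor was Ifng. Ifnar1, a chain of the type I receptor, had 12.4, 11.01 and 12.1 FPKM in HI colon and 15.1, 14.5 and 13.7 FPKM in sham colon, a log2 change of -0.27 ± 0.08 (SE; adjusted p = 0.383, limma).

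The pathway genes with the smallest p in the colon were the class I gene RT1-T24-1 and 2 of the 4 tested genes for interferon gamma inducers and regulators. Il18, made by gut epithelium and macrophages, had 31.2, 43.5 and 52.0 FPKM in HI and 22.1, 21.5 and 27.1 FPKM in sham, a log2 change of 0.79 ± 0.18 (SE; adjusted p = 0.313, limma). Il12a, a subunit of interleukin 12, had 2.66, 2.98 and 3.55 FPKM in HI and 1.57, 1.48 and 2.02 FPKM in sham (0.59 ± 0.14, SE; adjusted p = 0.313, limma). Every HI library lay above every sham library for both (5.63% of all genes), with HI 2 and HI 3 the highest. The other genes of that list, the cytokine gene Il15 and the transcription factor gene Tbx21, had log2 changes of -0.08 ± 0.13 and -0.17 ± 0.20 (SE), and the median of the 4 was 0.26. Cxcl11, a chemokine induced by interferon gamma, went the other way, with 6.92, 4.41 and 3.47 FPKM in HI and 8.93, 7.33 and 7.95 FPKM in sham (-0.65 ± 0.21, SE; adjusted p = 0.389, limma). RT1-T24-1, a class I gene whose locus overlaps RT1-T24-2, had 7.51, 3.50 and 4.51 FPKM in HI and 10.7, 11.6 and 10.9 FPKM in sham (-1.02 ± 0.22, SE; adjusted p = 0.286, limma). HI 2 and HI 3 were again the libraries farthest from sham. The DNA sensing adaptor Tmem173 (STING) had 10.6, 12.7 and 6.57 FPKM in HI and 6.38, 5.63 and 7.29 FPKM in sham, with HI 3 inside sham, and the protease gene Ctsd had 103, 114 and 127 FPKM in HI and 94.1, 92.5 and 102 FPKM in sham.

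The 5 pathway genes of the hippocampus with an unadjusted p under 0.05 came from 4 lists. Ctss, which trims Cd74 in antigen-presenting cells, had 63.2, 52.8 and 57.4 FPKM in HI and 41.7, 42.6 and 47.4 FPKM in sham, a log2 change of 0.39 ± 0.08 (SE; adjusted p = 0.599, limma). Mr1, which presents microbial vitamin metabolites, had 2.06, 2.10 and 1.73 FPKM in HI and 0.822, 0.908 and 1.03 FPKM in sham (0.62 ± 0.12, SE; adjusted p = 0.599, limma). Neither gene's groups overlapped (every HI library lay above every sham library for 6.4% of all genes). Ifi30, a lysosomal thiol reductase of antigen processing, had 15.7, 11.8 and 12.1 FPKM in HI and 9.99, 10.1 and 11.1 FPKM in sham. The DNA sensor Aim2 had 5.76, 3.17 and 4.33 FPKM in HI and 2.69, 1.54 and 3.08 FPKM in sham, and Trim34 had 3.66, 2.60 and 2.87 FPKM in HI and 1.65, 2.00 and 2.32 FPKM in sham. All 5 had their highest or next to highest value in HI 1. Beside them the microglial genes C1qc and Cd68 had log2 changes of 0.34 ± 0.09 and 0.36 ± 0.14, and Tyrobp and Fcgr3a of -0.44 ± 0.11 and -0.56 ± 0.18 (SE), so markers of microglia were found on both sides of 0. Their part in the values of Ctss, Mr1 and Ifi30 was not tested.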

How the data were processed

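RNA of 12 rat libraries (colon and hippocampus, HI and sham, 3 each) was extracted with TRIzol and made into mRNA libraries, per the labels' protocols. The authors deposited FPKM values of each library in 1 table per tissue, per the file headers. Aligner, quantifier, strand setting and genome build: not given in the sources used here. Libraries were grouped by their titles and treatment labels. The 41 members, their roles and the gene lists were chosen with earlier results of these data known. limma 3.58.1 in R 4.3.3 (eBayes with a mean-variance trend) was fitted to log2(FPKM + 1) of the genes that reached 1 FPKM in 3 or more libraries, with Benjamini-Hochberg adjustment over all of them (threshold 0.05). A log2 change on this scale understates that of low genes. The tissue difference is the interaction over 12 libraries. Errors are SE for log2 changes and SD for FPKM. FPKM carry no counts, so depth is unknown and no counting interval is given. The fit was tested on simulated data. Library values were printed for the 10 members with the smallest p in each tissue that reached a mean of 1 FPKM, the 4 most abundant, and up to 4 genes per pathway list among those with an unadjusted p under 0.05. Alternatives were another pseudocount (0.1), no filter, no trend, median-ratio scaling, 1 fit over both tissues, a Hox or myelin covariate, a replicate block, and leaving out libraries.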

Additional observations from a re-analysis of the deposited data

How the results depend on the processing

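No member passed an adjusted p of 0.05 in limma in any of 41 alternative fits (13 in the colon, 13 in the hippocampus, 15 for the difference between tissues). Genes past it in the colon numbered 6, against 16 in 1 fit over both tissues, 1 with the Hox score, 3 with no trend, 1 without HI 2 and HI 3 (chosen after seeing the data), and 2 to 38 with 1 library left out. Colon members with an unadjusted p under 0.05 numbered 4, against 1 with the Hox score, 1 without HI 2 and HI 3, and 0 to 9 with 1 library left out, and their median was -0.0408, against 0.1287 with the Hox score and -0.1102 to 0.08 with 1 library left out. In the hippocampus 1 gene passed, against 0 with the myelin score, 0 with no trend, 0 with a pseudocount of 0.1 and 0 to 5 with 1 library left out. Members there with an unadjusted p under 0.05 numbered 3, against 1 to 3 with 1 library left out, and their median was -0.0464, against -0.0979 with the myelin score and -0.0786 to 0.022 with 1 library left out. For the difference 2 genes passed, against 1 with no trend, 1 with a pseudocount of 0.1 and 1 to 21 with 1 library left out, and 3 members had an unadjusted p under 0.05, against 0 to 5. Over all tested members the sign turned in 81 of 1092 values (46 in the colon, 18 in the hippocampus, 17 for the difference), 0 of them with an unadjusted p under 0.05. Among RT1-Bb and the members with the smallest p or the highest level it turned in 18 cases. With the Hox score these were Ifit1 (0.0056), Gbp5 (0.0578), Psmb8 (0.1385), Ifitm3 (-0.0423) and RT1-Bb (-0.028), and without HI 2 and HI 3 Ifitm3 (-0.1129), RT1-Ba (-0.2607), RT1-Bb (-0.8031), RT1-Da (-0.1929) and Cd74 (-0.2787). Cd74 in the colon turned without HI 3 (-0.0953) and without sham 3b (-0.1111), and RT1-Da without sham 3b (-0.0221); with 1 library left out they reached 0.2588 and 0.3266 without HI 1. In the hippocampus Irf9 turned with the myelin score (-0.1109), without HI 1 (-0.0811), without sham 1 (-0.0267) and without sham 2 (-0.0012), and B2m without sham 3 (0.004); with 1 library left out the other ends of their ranges were 0.1255 and -0.0909. Of the other members, RT1-A2 (0.143), Irf7 (0.253) and Irf1 (0.229) of the colon turned with the Hox score and RT1-A2 also without HI 2 and HI 3 (0.129), and in the hippocampus Bst2 turned without HI 1 (-0.113) and Cd74 with the myelin score (-0.148). The cause was not tested.

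In the hippocampus HI and sham share replicate numbers. Over all genes tested, same-numbered libraries had r = -0.05, 0.08 and -0.03 for their deviations from the group mean. Pairs of unlike number had r from -0.14 to 0.14. With 3 libraries per group these values cannot settle whether same-numbered libraries shared more than a number. With the replicate block 0 genes passed and 1 member, Ifitm3, had an unadjusted p under 0.05. In the colon no paired analysis was made because not every sham column carries a distinct number.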
